A study of Mus musculus with 82 samples.

Results

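Accessible regions at distal H3K27ac peaks are stretches of open chromatin in hematopoietic stem cells (HSCs) that coincide with the acetylation of lysine 27 on histone H3 (H3K27ac) away from gene starts. They were taken from the consensus regions on which ATAC-seq reads were counted. A region was a member when it shared at least 1 bp with an H3K27ac peak annotated by the authors as gene body or intergenic and touched no H3K4me3 peak annotated as proximal to a transcription start site (TSS). Of 127695 consensus regions, 25278 touched a distal H3K27ac peak, 206 of these also touched a TSS-proximal H3K4me3 peak, and the remaining 25072 (19.6% of all regions) are described here. The study compared HSCs of young (YHSC) and old (OHSC) mice to ask how chromatin and gene expression change with age. All mice were C57BL/6J males without a transgene or treatment, and the cells were sorted from bone marrow as Lin- Sca-1+ Kit+ cells that were CD34- Flk2- CD150+, with B220, IL-7Rα, CD3, Mac1, Gr1 and Ter119 in the lineage stain. ATAC-seq of 4 YHSC and 4 OHSC libraries, H3K27ac ChIP-seq of 2 libraries per age and mRNA-seq of 4 YHSC and 8 OHSC libraries were used. H3K4me3 and H3K27me3 were used from 2 YHSC libraries each. The methods name a commercial breeder for the young mice and an aged-rodent colony for the old, so age and the source of the animals cannot be told apart. The labels number the libraries without saying which animals they came from, so p-values measure only the spread between libraries. For mRNA-seq the methods describe HSCs from pooled young but from individual old mice, so pooling and age cannot be told apart there, and YHSC libraries may vary less than single young mice would.

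Distal stretches of open chromatin with H3K27ac are the usual signature of active enhancers, DNA elements that raise the transcription of genes that may lie far away. ATAC-seq uses a transposase to insert adapters where nucleosomes leave DNA exposed, and H3K27ac is deposited on the flanking nucleosomes by coactivators that transcription factors recruit. In blood stem cells such elements are bound by combinations of RUNX, GATA, ETS-family (including PU.1), MEIS and AP-1 factors, while CTCF sites more often mark domain boundaries and H3K4me3 marks promoters. Regions are named below after the protein-coding gene whose start is nearest, which places a region and does not show that it controls that gene.

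Because motif shares differed between the calls, short windows from 8 named regions are printed, 4 that were more accessible in OHSCs and carried an AP-1 match (TGANTCA, where N is any base) and 4 that were less accessible and carried a PU.1 match (GAGGAAG). They are from the plus strand of GRCm38, whose chromosomes are those of mm10, and were chosen after calls and matches had been seen, so they show the motifs and are not typical of all called regions. The more accessible Tbl1xr1, Nrg3 and Ghitm regions described below held no AP-1 match, the less accessible Fam83d, Susd2 and Usf3 regions no PU.1 match, and the Susd2 region held an AP-1 match. Capitals mark every match, on either strand, to any of the 8 motifs searched. The more accessible regions were:
Grm7 region, chr6:109863511-109863711: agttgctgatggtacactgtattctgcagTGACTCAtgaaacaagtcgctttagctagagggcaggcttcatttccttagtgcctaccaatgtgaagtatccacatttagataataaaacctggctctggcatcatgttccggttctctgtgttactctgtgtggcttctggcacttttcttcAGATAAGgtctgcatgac
Chd6 region, chr2:161366568-161366768: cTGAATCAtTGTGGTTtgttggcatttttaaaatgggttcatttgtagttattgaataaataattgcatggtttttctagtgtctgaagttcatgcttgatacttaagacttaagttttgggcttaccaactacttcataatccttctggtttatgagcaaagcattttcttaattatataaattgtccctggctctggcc
Ehd3 region, chr17:73853770-73853970: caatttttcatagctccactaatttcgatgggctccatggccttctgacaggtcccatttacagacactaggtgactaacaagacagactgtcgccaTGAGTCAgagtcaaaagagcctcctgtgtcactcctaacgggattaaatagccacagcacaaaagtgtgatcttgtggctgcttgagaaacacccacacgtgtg
Wwtr1 region, chr3:57512342-57512542: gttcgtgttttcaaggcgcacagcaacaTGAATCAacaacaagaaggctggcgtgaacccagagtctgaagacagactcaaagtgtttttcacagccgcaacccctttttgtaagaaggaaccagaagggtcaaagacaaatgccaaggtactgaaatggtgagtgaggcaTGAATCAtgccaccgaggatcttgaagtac

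The less accessible regions were:
Pgbd5 region, chr8:124327303-124327503: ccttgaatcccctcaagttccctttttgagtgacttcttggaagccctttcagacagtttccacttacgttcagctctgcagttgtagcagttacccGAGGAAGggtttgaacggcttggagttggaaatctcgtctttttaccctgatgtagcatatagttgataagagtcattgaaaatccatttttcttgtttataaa
Myom2 region, chr8:16264198-16264398: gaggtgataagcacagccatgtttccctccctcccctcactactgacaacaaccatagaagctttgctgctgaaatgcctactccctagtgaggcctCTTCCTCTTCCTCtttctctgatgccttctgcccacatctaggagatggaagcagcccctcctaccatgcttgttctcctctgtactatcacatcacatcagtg
Ccr7 region, chr11:99168021-99168221: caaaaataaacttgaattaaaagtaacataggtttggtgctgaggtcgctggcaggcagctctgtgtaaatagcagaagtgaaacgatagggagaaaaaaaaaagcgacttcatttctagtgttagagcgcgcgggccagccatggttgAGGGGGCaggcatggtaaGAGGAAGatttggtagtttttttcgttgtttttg
Rasgrp1 region, chr2:117303488-117303688: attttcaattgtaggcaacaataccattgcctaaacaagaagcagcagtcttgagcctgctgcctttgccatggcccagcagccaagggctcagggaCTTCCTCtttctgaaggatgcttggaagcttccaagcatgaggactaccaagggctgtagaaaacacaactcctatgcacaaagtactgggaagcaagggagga

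The Grm7 window also held a GATA match and the Chd6 window a RUNX match 1 base from its AP-1 match. The Wwtr1 window held 2 AP-1 matches. The Ccr7 window held a CTCF core match besides PU.1.

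Between 15427933 and 26260337 reads per YHSC library and between 20033166 and 25920194 per OHSC library were counted on the consensus regions, the lowest being YHSC replicate 2. The mRNA-seq libraries held 20475764 to 24654742 reads on genes. Libraries of a group differed from each other beyond sampling noise, so none was counted as a duplicate. Summed mRNA of 8 HSC marker genes lay between 4678 and 4928 CPM (TMM-normalized counts scaled to library size) in YHSCs and between 4537 and 5083 in OHSCs, with every marker detected. In such bulk libraries, fewer cells of a type and less RNA per cell cannot be told apart. Summed mRNA of 6 B cell markers lay between 86.2 and 165 CPM in YHSCs and between 33.9 and 41.5 in OHSCs, and all 6 were called lower. Summed megakaryocyte markers lay between 158 and 189 CPM in YHSCs and between 278 and 366 in OHSCs, with 2 of 4 called higher. T cell markers lay between 1.10 and 3.25 CPM in all libraries, with 1 of 4 called higher. Erythroid markers lay between 27.2 and 35.3 CPM in YHSCs and 28.3 and 178 in OHSCs, with 2 of 5 called higher and 2 lower. Granulocyte and macrophage markers lay between 20.7 and 175 CPM in YHSCs and 19.2 and 81.6 in OHSCs, with 1 of 6 called lower. No marker of these lists was below 0.1 CPM in all libraries.

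The members were 150 to 3244 bp wide, with a median of 802 bp. By the annotation of their H3K27ac peak, 13121 (52.3%) were in gene bodies and 11951 (47.7%) were intergenic. The middle of the region fell in an intron for 11924, between genes for 12156 and in an exon for 992, by GENCODE basic transcripts. The median distance to the nearest protein-coding start was 32115.5 bp, and 328 (1.31%) lay within 1 kb of a start although they touched no TSS-proximal H3K4me3 peak. They fell on 23861 distinct H3K27ac peaks, 22685 of which held 1 member, while the others held up to 4, so neighbouring members can share the same H3K27ac value. The H3K27ac peak had been called in both ages for 56.8% of members, in OHSCs only for 32.8% and in YHSCs only for 10.4%. An H3K4me3 peak of any annotation, other than TSS-proximal, touched 51.3% of members, against 27.9% of all consensus regions for H3K4me3 peaks of every kind. An H3K27me3 domain touched 10.7% of members and 23.3% of all regions, and an H3K36me3 domain, the mark of transcribed gene bodies, touched 30.5% and 26.99%.

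Over all members, the share of the counted ATAC reads was larger in OHSCs, but this came with the members whose H3K27ac peak had been called in OHSCs only. All members held 24.3%, 23.7%, 24.3% and 24.5% of reads in the 4 YHSC libraries and 25.03%, 25.3%, 25.4% and 25.1% in the 4 OHSC libraries. Every OHSC library was above every YHSC library, and the means were 24.2% ± 0.333 (SD, n = 4) and 25.2% ± 0.174 (SD, n = 4). The difference of 0.984 percentage points had an exact permutation p of 0.0286 (two-sided), the smallest that 4 against 4 libraries allow, and 0.0381 after Benjamini-Hochberg adjustment over the 4 values tested this way. The rule admits regions through peaks called in a single age, and more of them in OHSCs, so this rise is not independent of the rule. Members at the 14237 regions with a peak called in both ages held 17.48%, 17.17%, 17.51% and 17.72% of reads in YHSCs and 17.48%, 17.57%, 17.81% and 17.56% in OHSCs. These libraries overlapped between ages, with a difference of 0.135 percentage points that did not pass the test (exact permutation p = 0.343). Members with an OHSC-only peak held 4.68% to 4.86% in YHSCs and 5.63% to 5.78% in OHSCs, and those with a YHSC-only peak 1.90% to 1.97% and 1.89% to 1.95%. This split by peak was added after the data were seen. Regions at TSS-proximal H3K4me3 peaks moved the other way, with 43.3% to 44.1% of reads in YHSCs and 39.8% to 40.6% in OHSCs. The log2 ratio of member reads to promoter-region reads averaged -0.85 ± 0.017 (SD, n = 4) for YHSCs and -0.67 ± 0.020 (SD, n = 4) for OHSCs, a difference of 0.18 (exact permutation p = 0.0286, adjusted 0.0381). With only the peaks called in both ages this difference was 0.13 (exact permutation p = 0.0286). Regions without any profiled mark held 15.5% to 17.2% of reads in YHSCs and 17.6% to 18.1% in OHSCs. The log2 ratio of member reads to reads in unmarked regions averaged 0.58 ± 0.082 and 0.50 ± 0.027 (SD, n = 4 per age), and this difference of -0.08 did not pass the test (exact permutation p = 0.143, adjusted 0.143). It was -0.13 with only the peaks called in both ages (exact permutation p = 0.0571) and 0.10 with only the peaks called in OHSCs (exact permutation p = 0.0571), so its size and sign varied with the peaks counted. Within the members, the log2 ratio of gene body to intergenic member reads ranged from -0.091 to -0.082 in YHSCs and from -0.112 to -0.095 in OHSCs, without overlap (difference -0.018, exact permutation p = 0.0286, adjusted 0.0381), but with only the peaks called in both ages the difference was -0.0038 and did not pass the test (exact permutation p = 0.286). Leaving out any single library keeps the direction of these differences, but 3 against 4 libraries cannot give an exact p below 0.0571. Mitochondrial regions held 4.63% to 6.49% of counted reads. With them left out, an alternative added after the data were seen, members held 25.4% to 25.9% of reads in YHSCs and 26.6% to 26.8% in OHSCs.

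**Figure D1:**
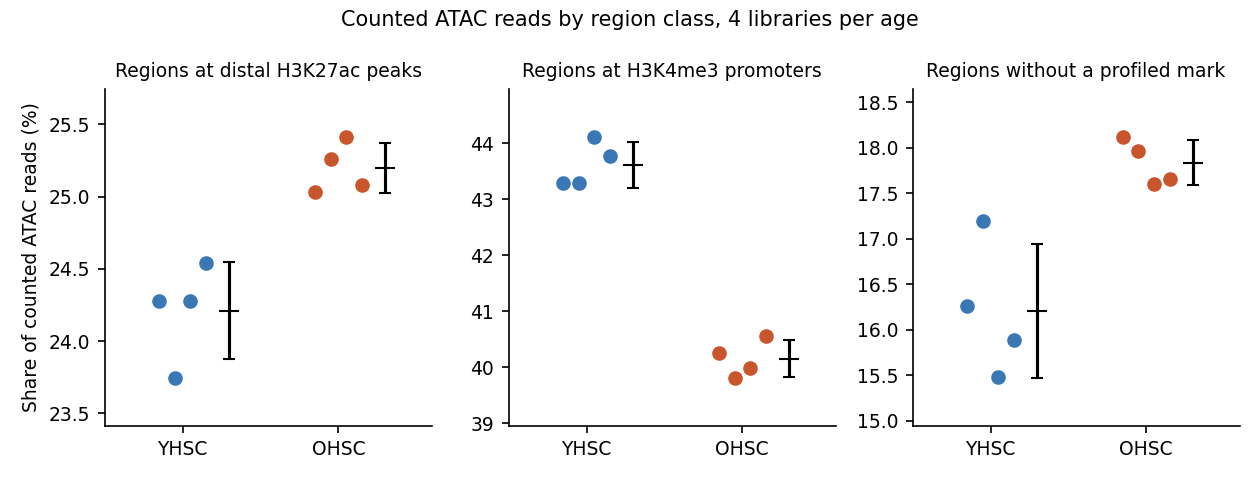
Share of counted ATAC reads (%, vertical axis, a separate scale in each panel that does not start at 0) in regions at distal H3K27ac peaks, at H3K4me3 promoters and without a profiled mark. Each point is a library (4 YHSC, 4 OHSC) and the bars are mean ± SD; OHSC libraries lie above all YHSC libraries in the left and right panels and below them in the middle panel.

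The quasi-likelihood test of edgeR was then run over the 89245 regions that exceeded 1.5 CPM in 4 or more libraries. Calls of more or less accessible needed a change of over 1.5-fold together with an adjusted p under 0.01. Of the members, 22980 were tested. Among them 21046 exceeded 1.5 CPM in all 8 libraries, 170 exceeded it in no YHSC library and 37 in no OHSC library. Of these, 158 were among the regions called more and 32 among those called less accessible below, as regions that pass the filter through a single age must differ. A total of 2358 tested members (10.3%) were more accessible in OHSCs, beside 10.1% of all tested regions, and 653 (2.84%) were less accessible, beside 2.90% of all. The share of members called was thus near that of the whole table, and so was the share of calls that were gains (78.3% of members called, 77.6% of all regions called). The median log2 fold change was 0.026 over tested members, with an interquartile range from -0.17 to 0.28, and -0.011 over all tested regions. Over the 16 pairings of an OHSC with a YHSC library, the members' median log2 ratio ranged from 0.011 to 0.048. At H3K4me3 promoter regions 207 of 15905 (1.30%) were called more and 297 (1.87%) less accessible, with a median of -0.14. Unmarked regions had 3537 (16.1%) called more and 630 (2.87%) less accessible of 21956, with a median of 0.10.

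Most calls were modest in size. Of the more accessible members 896 exceeded a 2-fold and 115 a 4-fold change, with a median log2 fold change of 0.88. Of the less accessible members 105 exceeded a 2-fold and 8 a 4-fold change, with a median of -0.75. The 4 libraries of each age did not overlap at 2236 of the more accessible (94.8%) and 592 of the less accessible members (90.7%), beside 93.5% and 89.7% of all tested regions with the same calls, so this separation went with the calls and was near that of the whole table. Of the uncalled members 22.7% did not overlap either.

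The balance of calls differed between kinds of members. Where the H3K27ac peak had been called only in OHSCs, 1617 of 7107 tested members (22.8%) were more accessible and 116 (1.63%) less. Where it had been called only in YHSCs, 94 of 2301 (4.09%) were more and 209 (9.08%) less accessible. Where it had been called in both ages, 647 of 13572 (4.77%) were more and 328 (2.42%) less accessible. Members without any H3K4me3 peak were called more accessible in 1849 of 10575 cases (17.5%), and members with such a peak in 509 of 12405 (4.10%). These 2 kinds also differed in level, with median YHSC accessibilities of 4.82 and 10.4 CPM per region.

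Distance from genes and chromatin context went with the calls as well. Closer than 5 kb to a start 5.27% were called more accessible. The share was 8.01% at distances up to 50 kb, 13.8% up to 500 kb and 29.3% for the 406 tested members beyond 500 kb. The share called less accessible was 3.50%, 3.39%, 1.93% and 1.48% in the same order. The median GC content of these distance groups fell as well, from 51.4% to 48.3%, 46.3% and 41.2%. GC content went with the calls, as described below, and its part in the trend with distance was not tested. The more accessible members lay a median of 56598 bp from the nearest start, the less accessible 20707 bp and the uncalled 30909 bp. Of the more accessible members 52.0% had their middle between genes and 2.29% in an exon, and of the less accessible 37.5% and 8.42%. Tested members between genes had a median GC content of 47.5% and those in exons 53.1%, and its part here was not tested either. A H3K27me3 domain touched 11.7% of more accessible, 18.4% of less accessible and 10.3% of uncalled members. Median YHSC accessibilities were 3.45 CPM at more accessible, 5.46 CPM at less accessible and 8.00 CPM at uncalled members. In OHSCs the medians were 7.00, 3.14 and 8.17 CPM in the same order. A call for more accessible itself favours a low YHSC level, and a call for less accessible a low OHSC level. In the most accessible of 4 equal groups by mean level over all libraries, 3.86% were more and 0.696% less accessible. In the least accessible group these shares were 15.2% and 5.40%.

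The named regions with the largest gains had low counts in YHSCs, and 4 of the 5 (all but the Ghitm region) exceeded 1.5 CPM in no YHSC library. The filter asked for more than 1.5 CPM in at least 4 libraries. A region that met it only through the age in which it is high was bound to differ, so no p-value is given for these 5 or for the other regions described below with at most 2 YHSC or at most 1 OHSC library above that level. The region at chr6:109863122-109864099, between genes and 781970 bp upstream of Grm7, which encodes a metabotropic glutamate receptor, had 1.19, 0.551, 1.38 and 1.11 CPM in the YHSC libraries and 19.99, 23.4, 16.1 and 16.8 CPM in the OHSC libraries. All OHSC libraries were far above the highest YHSC library, and the log2 fold change was 4.10 (SE 0.16). Its H3K27ac signal was 0.2498 and 0.224 in YHSCs and 1.13 and 1.76 in OHSCs. The region at chr3:21349406-21350162, 726868 bp upstream of Tbl1xr1, a subunit of nuclear corepressor complexes, had 0.656, 0.895, 1.26 and 0.632 CPM in YHSCs and 11.3, 13.3, 11.7 and 12.3 CPM in OHSCs. The ages were again widely separated, with a log2 fold change of 3.82 (SE 0.17) and H3K27ac signals of 0.312 and 0.338 against 1.53 and 1.89. An intronic region of Nrg3, the gene of a neuregulin growth factor, at chr14:38533414-38534432 had 0.205, 0.275, 0.908 and 0.789 CPM in YHSCs and 6.58, 9.44, 4.85 and 7.15 CPM in OHSCs (log2 fold change 3.595, SE 0.27). A second region on the same chromosome, at chr14:38236872-38237839 with Ghitm as the nearest start, had 0.413 to 1.74 CPM in YHSCs and 9.65 to 16.6 CPM in OHSCs (log2 fold change 3.53, SE 0.25). The Chd6 region at chr2:161366134-161367201, 257646 bp upstream of this chromatin remodeller, had 0.206 to 0.750 CPM in YHSCs and 4.76 to 6.42 CPM in OHSCs (log2 fold change 3.53, SE 0.24). At all 5 regions the H3K27ac peak had been called only in OHSCs and was higher in them by the replicate rule described below. None of the 5 nearest genes was called changed in mRNA.

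The named regions with the largest losses averaged 3.19 to 27.2 CPM in YHSCs, where the naming rule asked for at least 3, and those near Pgbd5, Fam83d and Usf3 exceeded 1.5 CPM in no OHSC library. These 3 passed the filter through their YHSC counts alone. The region at chr8:16263792-16264585, in an intron of Csmd1 and with Myom2 as the nearest start 1206536 bp away, had 27.5, 26.97, 27.7 and 26.4 CPM in YHSCs and 5.44, 4.74, 5.65 and 4.60 CPM in OHSCs. The libraries of each age were tightly grouped and far apart between ages, with a log2 fold change of -2.41 (SE 0.094, adjusted p = 2.52e-28). Its H3K27ac signal was 1.25 in each YHSC library and 0.379 and 0.200 in the OHSC libraries. The region at chr8:124326934-124327490, with Pgbd5, a transposase-derived gene, as the nearest start, had 4.26, 5.23, 4.46 and 4.18 CPM in YHSCs and 0.621, 0.279, 0.444 and 1.09 CPM in OHSCs (log2 fold change -2.88, SE 0.25). Regions near Fam83d, Susd2 and Usf3 had log2 fold changes of -2.58, -2.53 and -2.32, again without overlap between ages. Except at Susd2, where the H3K27ac ratio of OHSC to YHSC means was 0.645, the H3K27ac peaks of these regions were lower by the replicate rule. All 5 of these peaks had been called only in YHSCs.

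**Figure D2:**
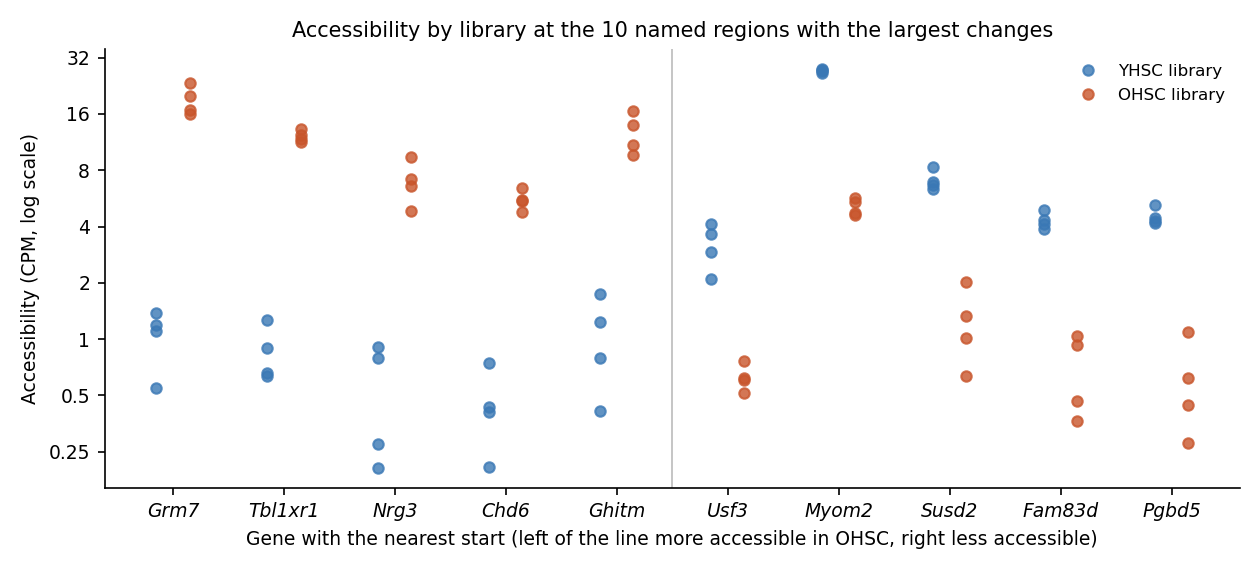
Accessibility (CPM, vertical log axis) at the 5 most strongly gained and 5 most strongly lost named regions, labelled by the gene with the nearest start (horizontal axis). Each point is a library, with 4 YHSC and 4 OHSC libraries per region; the ages do not overlap at any of the 10 regions, as the naming rule required.

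The median H3K27ac ratio was above 1 at more accessible and below 1 at less accessible members. The size and sign of these medians varied with the age in which the peak had been called, but their order did not. The deposited H3K27ac signal of each library, which the authors had normalized to a fixed number of reads, was taken from the distal peak under each member and averaged over peaks where a member touched more than 1. On the log2 scale, the ratio of OHSC to YHSC means had a median of 0.64 at the 2358 more accessible members, with medians from 0.51 to 0.79 over the 4 pairings of an OHSC with a YHSC library. At the 653 less accessible members it was -0.22, with pairings from -0.35 to -0.12. At the 19969 uncalled members it was 0.083, with pairings from -0.024 to 0.21, and over all 39557 H3K27ac peaks it was 0.057, with pairings from -0.047 to 0.18. The signal was higher in OHSCs at 92.9% of more accessible, 60.2% of uncalled and 25.6% of less accessible members. Median signals by library at the more accessible members were 1.09 and 0.956 in YHSCs and 1.48 and 1.58 in OHSCs. At the less accessible members they were 1.78 and 1.66 in YHSCs and 1.47 and 1.37 in OHSCs. These medians are not independent of the rule, which admits peaks called in a single age: 1617 of the 2358 more accessible members had an OHSC-only and 94 a YHSC-only peak. With only peaks called in both ages, an alternative added after the data were seen, the median was 0.38 at 647 more accessible members (pairings 0.24 to 0.55), -0.18 at 328 less accessible (-0.28 to -0.072) and 0.036 at 12597 uncalled members (-0.075 to 0.17), where the last 2 ranges overlapped. At members with an OHSC-only peak the medians were 0.79 at more accessible, 0.38 at uncalled and 0.15 at less accessible members. At members with a YHSC-only peak they were -0.24, -0.34 and -0.59 in the same order. Within each peak class, the pairing range of uncalled members overlapped that of another call. No test was made of these medians.

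Peaks were also called without a test when the ratio of age means exceeded 1.5 and every OHSC to YHSC library ratio was at least 1.2 (the replicate rule). Of the 23861 distinct peaks under members, 2764 (11.6%) were higher and 665 (2.79%) lower in OHSCs, beside 9.11% and 2.27% of all peaks. Among more accessible members 1121 (47.5%) had a higher and 9 a lower peak, and among less accessible members 9 had a higher and 112 (17.2%) a lower peak. Among uncalled members 1369 (6.86%) had a higher and 475 (2.38%) a lower peak. With only peaks called in both ages, 146 of 647 more accessible members (22.6%) had a higher peak and 19 of 328 less accessible members (5.79%) a lower peak, beside 2.56% and 1.10% of uncalled members. Read from the other side, 1121 of 2499 members with a higher peak (44.9%) were more accessible, and 112 of 596 with a lower peak (18.8%) were less accessible. With limma over all peaks, 736 member peaks were higher and 85 lower at an adjusted p below 0.05, beside 2.53% and 0.415% of all peaks. With a library left out, fewer library ratios had to reach 1.2, so the rule was easier to meet, and its counts varied with the library. Without YHSC H3K27ac replicate 1 the rule called 5349 member peaks higher. It called 1444 lower without YHSC replicate 2, 1125 lower without OHSC replicate 1 and 1094 lower without OHSC replicate 2. With 0.5 added to every signal it called 1487 higher and 260 lower, and with libraries scaled to the same median 2144 higher and 1027 lower.

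**Figure D3:**
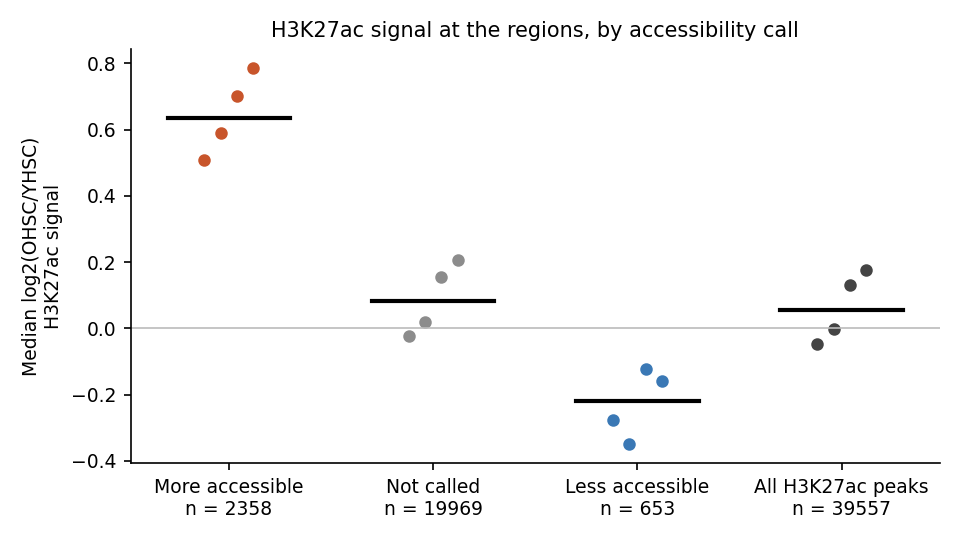
Median H3K27ac ratio (log2, OHSC over YHSC signal, vertical axis) at members called more accessible, not called and less accessible, and at all H3K27ac peaks. Points are the medians of the 4 pairings of an OHSC with a YHSC library and black lines the medians of the ratio of age means (0.64, 0.083, -0.22 and 0.057); the pairings of the 3 groups of members do not overlap.

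GC content moved with the calls. The median GC content was 44.9% at more accessible, 47.9% at uncalled and 51.0% at less accessible members. Across 5 equal groups of the tested members by GC content, the share called more accessible was 18.4%, 11.99%, 10.0%, 6.94% and 3.94% from the lowest to the highest, and the share called less accessible was 1.07%, 1.59%, 2.39%, 3.85% and 5.31%. With an edgeR fit that removed each library's trend with GC content, 1676 members were more and 995 less accessible, so that the share of gains among calls was 62.7% in place of 78.3%. The members' median log2 fold change was then -0.054, below 0, while that of all tested regions was -0.051. In that fit the shares more accessible across the groups were 9.51%, 8.03%, 7.50%, 6.44% and 4.98%, and the shares less accessible were 5.59%, 4.42%, 4.00%, 4.09% and 3.55%. The corrected log2 fold changes were 3.75 at the Grm7 region and -2.45 at the Myom2 region. When members were grouped by the corrected calls, an alternative added after the data were seen, the median H3K27ac log2 ratio was 0.73 at more and -0.21 at less accessible members. Whether the trend with GC content arose in the cells or in library preparation was not tested.

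**Figure D4:**
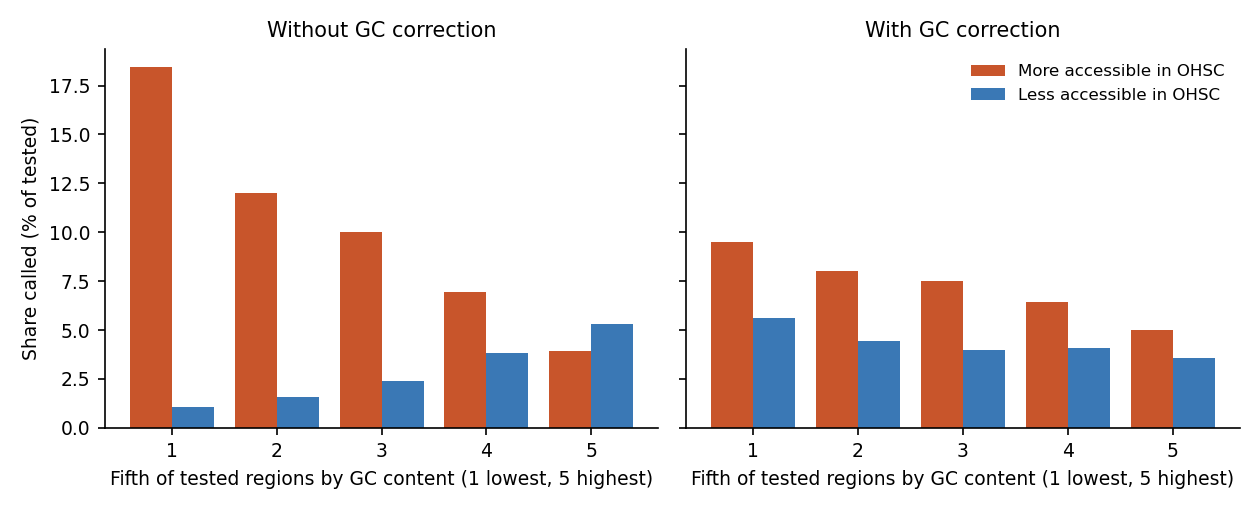
Share of tested members called more accessible and less accessible in OHSCs (%, vertical axis from 0) in 5 equal groups by GC content (horizontal axis, lowest to highest), without (left) and with (right) the correction for GC content. Without correction the share of gains falls from 18.4% to 3.94% across the groups; with correction it falls from 9.51% to 4.98%.

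Motif shares differed between more and less accessible members. A match to the AP-1 motif, the site of FOS and JUN dimers, was present in 885 of 2358 more accessible members (37.5%, exact 95% binomial interval 35.6% to 39.5%), 29.6% of uncalled and 95 of 653 less accessible members (14.5%, interval 11.9% to 17.5%). All consensus regions together held it in 19.8% of cases and all members in 28.5%. Tested members were wider, with a median of 833 bp against 670 bp for all tested regions. In the 300 bp around the region's middle all consensus regions held it in 12.7%, all members in 14.1% and unmarked regions in 15.6%. The intervals cover counting error only, and regions are not independent replicates. In that window, which removes differences in width, the shares were 21.2% at more accessible, 13.6% at uncalled and 6.13% at less accessible members. Within each of the 5 GC groups the same order held in that window: AP-1 matches were at 18.7% to 24.9% of more accessible, 11.6% to 14.4% of uncalled and 4.08% to 7.27% of less accessible members. Of the 3265 tested members with an AP-1 match in the 300 bp, 500 (15.3%) were more and 40 (1.23%) less accessible, and of the 19715 without, 1858 (9.42%) and 613 (3.11%). This was not particular to H3K27ac-marked regions, since 32.6% of more accessible and 15.4% of less accessible regions outside the members held an AP-1 match.

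PU.1, an ETS-family factor of myeloid and lymphoid fate, showed the opposite order. Its motif was present in 32.02% of more accessible, 43.8% of uncalled and 46.7% of less accessible members, beside 29.7% of all regions. The 300 bp window held the motif in 15.4%, 23.5% and 30.9%, beside 19.9% of all regions. Within the GC groups, that window held it in 12.8% to 20.4% of more accessible, 20.3% to 25.8% of uncalled and 22.4% to 36.2% of less accessible members. The RUNX motif (TGTGGTT) was present in 29.3%, 25.6% and 15.2% of more accessible, uncalled and less accessible members, and the GATA motif (AGATAAG) in 18.1%, 13.6% and 7.81%. The CTCF core (AGGGGGC) ran the other way, with 7.93%, 13.8% and 16.7%, and so did the E-box CAGCTG, with 37.3%, 43.4% and 47.6%. Only AP-1 and PU.1 were examined within the GC groups. For the other motifs the part of GC content, which differed between the calls, was not tested. The MEIS motif (TGACAGC) was at 15.4%, 15.3% and 17.3% of whole regions and at 6.11%, 6.16% and 9.65% in the 300 bp window. The general ETS motif (CCGGAAG, which shares its last 5 letters with the PU.1 motif) was rare at members, with 4.75%, 7.35% and 4.59%, while 24.4% of H3K4me3 promoter regions held it. All motifs were searched on both strands, and a match shows the letters only.

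**Figure D5:**
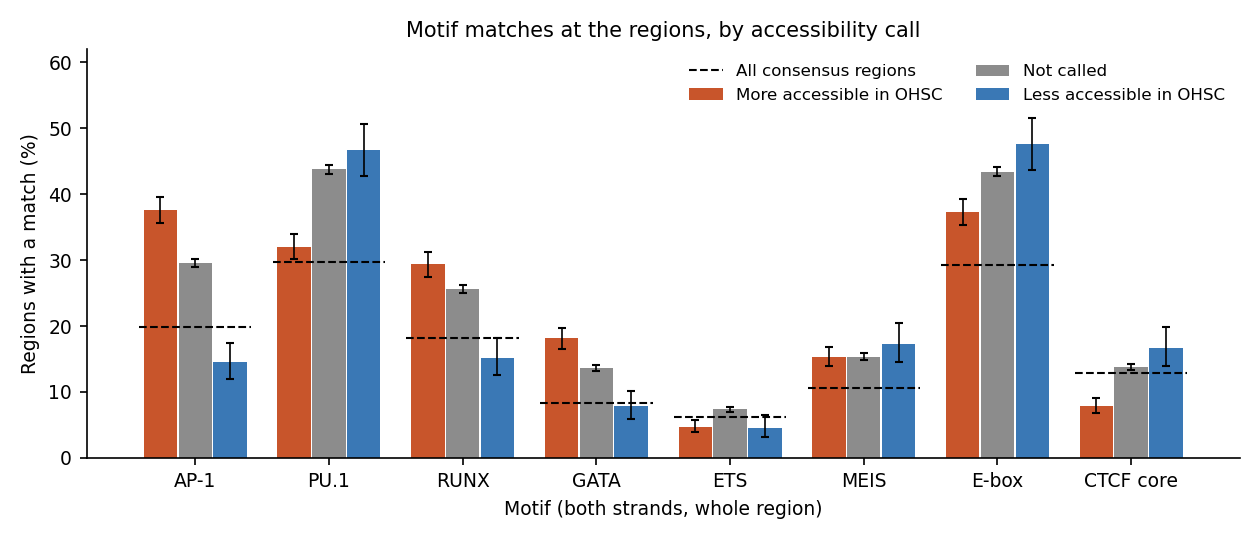
Share of members with at least 1 match to each of 8 motifs (%, vertical axis from 0) among members more accessible in OHSCs, not called and less accessible. Matches were counted over whole regions, whose width and GC content differed between the calls. Only AP-1 and PU.1 were also examined within GC groups. Bars carry exact 95% binomial intervals that cover counting error only, and the dashed line is the share among all consensus regions; AP-1, RUNX and GATA matches are most frequent in more accessible members, PU.1, E-box and CTCF core matches in less accessible members.

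Regions near genes known to be expressed more in aged HSCs were often gained. The list held 20 such genes, and 19 of the 20 were called higher in mRNA here, so it is no independent evidence of direction. Of its 41 tested members 18 (43.9%) were more and 1 less accessible, beside 10.1% and 2.90% of all tested regions, with a median log2 fold change of 0.52, and the 18 belonged to 10 genes. The region 48672 bp downstream of the start of Ehd3, an endocytic trafficking gene, at chr17:73852908-73854118 had 0.902, 0.551, 0.868 and 0.710 CPM in YHSCs and 7.30, 9.32, 6.54 and 6.99 CPM in OHSCs. All OHSC libraries were higher (log2 fold change 3.27, SE 0.20), the H3K27ac ratio was 3.04, and the region passed the filter through OHSCs alone. An intronic region of Wwtr1, which encodes the Hippo pathway coactivator TAZ, at chr3:57511897-57512986 had 5.54, 4.95, 4.74 and 4.46 CPM in YHSCs and 15.7, 13.9, 15.99 and 16.5 CPM in OHSCs. Every OHSC library was above every YHSC library (log2 fold change 1.66, SE 0.11, adjusted p = 2.92e-18), and its H3K27ac signal was 1.70 and 1.14 in YHSCs and 4.84 and 4.40 in OHSCs, the lowest limma p among the named regions (adjusted p = 1.44e-05). A region far upstream of Alcam, a cell adhesion gene, had 0.789 to 1.26 CPM in YHSCs and 2.54 to 4.34 CPM in OHSCs (log2 fold change 1.81, SE 0.23), and it too passed the filter through OHSCs alone. The single loss was inside Vwf, the gene of von Willebrand factor, at chr6:125572388-125573834, with 42.3, 42.7, 40.8 and 43.8 CPM in YHSCs and 27.03, 23.5, 28.3 and 26.2 CPM in OHSCs. All OHSC libraries were lower (log2 fold change -0.69, SE 0.061, adjusted p = 7.08e-14), while Vwf mRNA was called higher (log2 fold change 1.205). Another Vwf region, starting at position 125583500, was called more accessible, with 2.61 to 4.07 CPM in YHSCs and 4.36 to 7.72 CPM in OHSCs (log2 fold change 0.64, SE 0.16, adjusted p = 0.00152).

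The other lists had call shares nearer to the whole table's (10.1% more and 2.90% less accessible, with 4.69% of all tested mRNAs called higher and 2.83% lower). Genes of HSC regulators had 118 tested members, 11 (9.32%) more and 1 (0.847%) less accessible, with a median log2 fold change of 0.020 and 2 of 20 mRNAs called higher. The largest gain among them was 53889 bp upstream of Fli1, an ETS factor, with 0.947 to 1.66 CPM in YHSCs and 3.96 to 4.78 CPM in OHSCs (log2 fold change 1.74, SE 0.20). Regions of Gata2 and Mecom, both transcription factors needed by HSCs, followed with log2 fold changes of 1.33 and 1.08. HSC surface and niche receptors had 5 of 38 tested members (13.2%) more and 0 less accessible, with log2 fold changes of 1.09 at Kit (a region above the filter in OHSCs alone), 0.86 at Cxcr4 and 0.85 at Cd34. At an unadjusted p below 0.05 in edgeR, 5 of the 38 were lower, and DESeq2 called 0 less accessible. Megakaryocyte and platelet genes had 6 of 39 (15.4%) more and 2 (5.13%) less accessible with a median of -0.022, and 7 of 16 of their mRNAs were called higher. Their largest gain was 73282 bp upstream of Rap1b, a small GTPase of platelet activation (log2 fold change 2.25, SE 0.24). Of the other gains 3 were near Thbs1, the gene of thrombospondin, with log2 fold changes of 0.85, 0.74 (0.56 and no longer called with GC correction) and 0.60, while Thbs1 mRNA was called lower (log2 fold change -0.66). The losses were in Vwf and in Cd9, a platelet tetraspanin gene (-0.72), and without YHSC replicate 1, 3 or 4 or OHSC replicate 6 or 8 the Cd9 call was lost (-0.70 to -0.56).

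At lineage genes outside the stem cell and platelet programs, the share of gains was near or below that of the whole table. Lymphoid genes had 10 of 93 tested members (10.8%) more and 3 (3.23%) less accessible, with a median of -0.013, while 8 of 19 of their mRNAs were called lower and 0 higher; 2 of the 19 were higher at an unadjusted p below 0.05, and DESeq2 called 0 higher. Regions upstream and inside of Bach2, a transcriptional repressor that favours lymphoid over myeloid fate, had log2 fold changes of 1.63 and 1.12, and a region 251362 bp upstream of Satb1, a chromatin organizer, had 1.10 although Satb1 mRNA was called lower (log2 fold change -1.57). A region 9706 bp upstream of Notch1 was less accessible, with 7.05 to 9.47 CPM in YHSCs and 3.27 to 5.57 CPM in OHSCs (log2 fold change -0.90, SE 0.14, adjusted p = 1.15e-06). The lower mRNA of the 6 B cell markers in OHSCs stands beside these values, and its part in them was not tested. Myeloid genes had 1 of 29 tested members called, a gain near Cebpe (log2 fold change 1.56). None of the 8 tested members of erythroid genes was called by edgeR or DESeq2, and 5 of them had an unadjusted p below 0.05. AP-1 and early response genes had 2 of 74 (2.70%) more accessible, near Klf4 (log2 fold change 1.48) and Jun (0.88), and 1 less accessible, near Klf6 (-0.61). Without YHSC replicate 4 or OHSC replicate 6 the Klf6 region stayed lower (-0.58 and -0.46) but no longer passed the fold threshold.

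The genes that gathered most members were not those that gathered most calls. Members clustered around 9108 genes, of which 3910 had 1 and 293 had 10 or more. Pde4d, a cyclic AMP phosphodiesterase, had 37 members, Adgrl2, an adhesion receptor, 36, Mecom 29, Cited2, a transcriptional coregulator, 28 and Smad7, an inhibitor of TGF-beta signalling, 27. Of their tested members 1 of 32, 5 of 33, 4 of 29, 5 of 22 and 0 of 26 were more accessible, and 1 of the Smad7 members was less accessible. Gained members were most numerous around Dlg2 with 8 of 15 tested, Fgf12 with 7 of 10, Lsamp with 7 of 12, Nav2 with 6 of 13 and Sema3a with 6 of 7. Their median H3K27ac log2 ratios lay between 0.37 and 0.61. Of these 5 genes only Fgf12, a fibroblast growth factor homolog, was called higher in mRNA, from 0.964 to 2.24 CPM in YHSCs to 1.76 to 4.06 CPM in OHSCs (log2 fold change 0.99, SE 0.27, adjusted p = 0.0101). Lost members were most numerous around Dlk1, an imprinted gene, with 5 of 11 tested, Rap1gap2 with 5 of 5, Itpk1 with 4 of 6, Atp2a3 with 3 of 3 and Cluh with 3 of 4. The 11 Dlk1 members had log2 fold changes from -0.93 to -0.24 and a median H3K27ac log2 ratio of -0.42. The 5 members at Rap1gap2, which encodes a GTPase activator for RAP1 found in platelets, had log2 fold changes from -0.84 to -0.64, whereas their median H3K27ac log2 ratio was 0.38 and Rap1gap2 mRNA was called higher (log2 fold change 0.92, SE 0.22, adjusted p = 0.00632).

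The mRNA of the nearest genes leaned the same way as accessibility, for a minority of genes. Of 8776 genes nearest to a tested member, 7343 were tested by edgeR in mRNA, where calls needed a change of over 1.5-fold and an adjusted p under 0.05. Among 1428 genes with gained members only, 184 (12.9%) were higher and 39 (2.73%) lower in OHSCs, beside 4.69% and 2.83% of all tested genes. Among 457 genes with lost members only, 16 (3.50%) were higher and 43 (9.41%) lower. Among 5399 genes with uncalled members only, 299 (5.54%) were higher and 215 (3.98%) lower, and 59 genes with both gains and losses had 7 in each direction. Median mRNA log2 fold changes were 0.057, -0.054 and -0.0040 for gained, lost and uncalled, beside -0.0073 for all tested genes. With only members within 50 kb of the start, the median of genes with gained members was 0.10.

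At the 191 genes with a gained member and higher mRNA, the largest mRNA changes were at Sbspon, Tmem215, Ntf3, Rassf10 and Kcnb2. Sbspon, which encodes a secreted protein with a somatomedin B and a thrombospondin domain, had 2.30, 3.51, 3.04 and 2.85 CPM of mRNA in YHSCs and 64.3 to 105 CPM with a median of 86.5 in OHSCs. The mRNA log2 fold change was 4.89 (SE 0.19, adjusted p = 9.56e-10). Both tested Sbspon members were more accessible, and the stronger, in an intron at chr1:15882970-15884158, had 9.39, 8.74, 8.44 and 8.13 CPM in YHSCs and 13.6, 15.7, 16.2 and 14.3 CPM in OHSCs (log2 fold change 0.79, SE 0.1, adjusted p = 4.67e-09). Changes in accessibility at these genes were smaller than those in mRNA, which picking genes by their mRNA change favours. At Tmem215, Ntf3, a neurotrophin gene, Rassf10 and Kcnb2, a potassium channel gene, mRNA log2 fold changes were 4.59, 4.51, 4.49 and 4.45. The accessibility log2 fold changes of their strongest gained members were 1.05, 0.84, 1.03 and 0.81. YHSC mRNA averaged only 0.129 CPM at Ntf3 and 0.298 CPM at Rassf10. With correction for GC content the Kcnb2 region was at 0.50 and below the fold threshold.

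At the 50 genes with a lost member and lower mRNA, the largest mRNA changes were at Il9r, Ccr7, Chst3, Itgb5 and Rasgrp1. Ccr7, a chemokine receptor of lymphocytes and dendritic cells, had 1.97, 1.36, 2.76 and 2.85 CPM of mRNA in YHSCs and 0.0845 to 0.536 CPM with a median of 0.240 in OHSCs (log2 fold change -3.06, SE 0.33, adjusted p = 1.81e-07). Its region at chr11:99167849-99168392, 13044 bp upstream, had 4.80, 4.40, 4.22 and 4.70 CPM of accessibility in YHSCs and 3.26, 1.75, 2.38 and 2.22 CPM in OHSCs. The ages did not overlap (log2 fold change -0.93, SE 0.18, adjusted p = 3.97e-05), and H3K27ac was lower by the replicate rule with a ratio of 0.538. At Il9r, a cytokine receptor gene, the mRNA log2 fold change was -3.66 and that of its lost member -0.67, and libraries of that member overlapped between ages. Without OHSC replicate 5 the Il9r region was at -0.55 and no longer passed the fold threshold. Rasgrp1, an activator of RAS in lymphocytes, and Itgb5, an integrin subunit, had mRNA log2 fold changes of -2.17 and -2.22 and lost members at -0.75 and -0.86, the latter with overlapping libraries. Of the other 2 tested Rasgrp1 members 1 was more accessible, with 9.24 to 11.8 CPM in YHSCs and 17.9 to 19.2 CPM in OHSCs (log2 fold change 0.83). At Chst3, a sulfotransferase gene, values were -2.68 for mRNA and -0.63 for the region 326 bp from its start. H3K27ac there had a ratio of 1.42 over both YHSC libraries and of 0.916 without YHSC replicate 2. The accessibility call was lost with GC correction (-0.51) and without OHSC replicate 5 (-0.58) or 8 (-0.57). Summed B cell marker mRNA, which was lower in every OHSC library, moved in the same direction as these genes, and its part in them was not tested. The lineage stain of the sort included B220 and IL-7Rα, a gate that removes B cells bearing them.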

How the data were processed

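ATAC-seq counts were deposited as raw reads per consensus region; per the methods, the authors trimmed reads, aligned them to mm10 with BWA, kept unique de-duplicated reads outside blacklisted stretches and merged MACS peaks of both ages. The mRNA-seq counts deposited by the authors were raw reads per gene from STAR and featureCounts. The H3K27ac, H3K4me3 and H3K27me3 peak tables held signal values that the authors had scaled to a fixed read number per library; the methods mention averaging to 1 kb bins, without saying how each peak's value was taken from them. The H3K36me3 file held domain positions only, which the authors derived from chromatin states. The peak tables' fold change columns hold the authors' own comparisons and were not used, nor were 8 per-sample columns (4 OHSC ATAC-seq libraries and 4 OHSC H3K4me3 and H3K27me3 columns) that no listed sample matched.

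Regions were tested with edgeR 4.0.16 (TMM, robust quasi-likelihood fit, 4 against 4 libraries, above 1.5 CPM in at least 4 libraries) in R 4.3.3, mRNA in the same way with 8 OHSC and 4 YHSC libraries, and H3K27ac with limma 3.58.1 on log2(signal + 0.5). All adjusted p-values are Benjamini-Hochberg values over every feature tested. Read shares were compared by two-sided exact permutation tests. DESeq2 1.42.0, other scalings, filters, thresholds, a correction for GC content and leaving out single libraries were alternatives. In simulated counts for the ATAC-seq comparison over 89245 regions, 99.5% of 200 regions changed 2-fold were recovered, and in simulated H3K27ac signals over 39557 peaks 64.5% of 200 peaks shifted by 2 on the log2 scale. Depth, given with the results, limits the precision of low counts; intervals cover counting error only.

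Gene starts came from GENCODE release M21 protein-coding genes, and sequence from GRCm38. Named regions were, in each direction, the 5 called members with the largest change among those without overlap between ages and averaging at least 3 CPM in the higher age, the 5 whose H3K27ac peak also passed the replicate rule, up to 3 per gene list, and called members of the 5 genes with the largest mRNA change in the same direction; named genes also included the 5 with the most members or calls. Members, lists and rules were chosen with earlier results of these data known. Replicate numbers did not pair the samples. A region that the naming rule picked is not reported here.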

Additional observations from a re-analysis of the deposited data

Results flagged for a closer look

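In groups of 4 to 10 libraries, a library was singled out when its gap to the nearest other, over the range of the group, exceeded the 95% critical value of Dixon's test. This picked 3 of the 150 groups examined, where chance alone would give about 7.5. At the Cd9 region starting at position 125476132 of chromosome 6, YHSC replicate 2 was the lowest YHSC library with 2.96 CPM of accessibility, and the next was 3.63 CPM. For Ntf3 mRNA, YHSC replicate 4 was the highest YHSC library with 0.248 CPM, and the next was 0.0935 CPM. For Smad7 mRNA, YHSC replicate 3 was the lowest YHSC library with 24.2 CPM, and the next was 27.1 CPM.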

How the results depend on the processing

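Among the ATAC-seq, mRNA and read share results with a test, none changed direction under the alternatives run, except in the splits by peak. With OHSC-only peaks the log2 ratio of member reads to unmarked-region reads differed by 0.10, against -0.08 with all members. With YHSC-only peaks the read share differed by -0.030 points, against 0.984 with all members. The H3K27ac ratio at Chst3, which limma did not call, went from 1.42 to 0.916 without YHSC replicate 2, and the H3K27ac ratios of other single regions were not recomputed in this way. DESeq2 left the counts of called members within 1.5 times. The median ATAC log2 fold change of tested members was 0.046 with library totals alone, 0.00261 without the CPM filter and -0.054 with GC correction, under which 995 members were less accessible. With a fold change above 2, 896 members were more and 105 less accessible, 4.36% in all, and the H3K27ac medians were 0.92 and -0.61. Where regions with any H3K4me3 peak were left out, 350 were less accessible, 20.8% were called in all and the median was 0.14. When each ATAC-seq library was left out in turn, the difference in read share was 0.830 to 1.10 percentage points, that in the log2 ratio to promoter regions 0.17 to 0.18, and that of gene body to intergenic members -0.0213 to -0.0156; each exact permutation p was 0.0571, the smallest that 3 against 4 libraries allow. With only members whose peak was called in both ages, added after the data were seen, the read share differed by 0.135 points and gene body to intergenic members by -0.0038, neither passing the test. The H3K27ac median at more accessible members was then 0.38. By the replicate rule, 2144 member peaks were higher and 1027 lower with libraries scaled to the same median. With 0.5 added to each signal the H3K27ac median at more accessible members was 0.46 and the rule called 1487 higher and 260 lower, and limma called 736 and 85. Leaving out single H3K27ac libraries, which leaves fewer library ratios for the rule to meet, gave 2953 to 5349 higher and 835 to 1444 lower. Nearest genes within 50 kb with gained members only had 20 lower mRNAs and a median of 0.10. In the 300 bp around the middle, more accessible, less accessible and uncalled members held a match in 21.2%, 6.13% and 13.6% for AP-1, 15.4%, 30.9% and 23.5% for PU.1, 16.2%, 6.74% and 12.5% for RUNX, 10.2%, 3.68% and 6.28% for GATA, 2.50%, 2.14% and 3.48% for ETS, 6.11%, 9.65% and 6.16% for MEIS, 17.3%, 26.6% and 20.4% for the E-box and 2.71%, 9.49% and 5.51% for the CTCF core. The window is shorter than most regions, and the causes of the other shifts were not tested.

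For the named regions, 537 alternative values kept the call and 17 did not. Calls were lost with GC correction at the second Thbs1 region (0.56), the Notch1 intron region (-0.55), Kcnb2 and Chst3, and in leave-one-out fits at Cd9 (without YHSC replicates 1, 3 or 4 or OHSC replicates 6 or 8), Lef1 (without YHSC replicates 1 or 4 or OHSC replicate 7), Klf6, Il9r and Chst3. Some named regions dropped below the CPM filter when a library was left out and gave no value.

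The ATAC-seq ages share no replicate number, so no paired ATAC-seq fit was made. Replicates of equal number did not deviate together (r = 0.020 for H3K27ac, and 0.037, -0.12, 0.0019 and -0.23 for mRNA, none correlating best with its own number). With a replicate block, limma called 878 member peaks higher and 109 lower, and mRNA calls among nearest genes were 469 higher and 261 lower. In that fit gained-only genes had 176 and 35, with a median of 0.05, and lost-only genes 12 and 37, with a median of -0.06.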

Other observations

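Members in H3K27me3 domains, the mark of Polycomb repression, were called more accessible in 275 of 2461 tested cases (11.2%) and less accessible in 120 (4.88%), against 10.2% and 2.60% of members outside such domains. Members with their middle in an exon had nearly equal numbers of gains and losses, 54 and 55 of 910, and a median log2 fold change of -0.097. On the X chromosome 26 of 298 tested members (8.72%) were more and 2 (0.671%) less accessible, beside 10.1% and 2.90% of all tested regions. Members touching an H3K36me3 domain were called more accessible in 9.71% of cases and less accessible in 3.63%, against 10.5% and 2.51% of members outside such domains, all near the shares of the whole table. No test was made of these differences.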
